A study of Homo sapiens with 4 samples.

Results

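The genes described here code for the coat of the lipid droplet and for the enzymes that empty it. They were chosen by name, as 10 gene symbols with earlier results of these data known: PLIN2, PLIN3, PLIN4, PLIN5, HILPDA, G0S2, PNPLA2, ABHD5, LIPE and MGLL. The array's annotation gave 9 of the 10 a probe set, 1 each, out of 18417 genes measured in all. PLIN5 was not analysed here.

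Expression was measured on 4 arrays, 1 for each combination of line and treatment. The groups were U2-OS cells exposed to OGE at 600 μg/mL, U2-OS controls at 0 μg/mL, HOS cells at 600 μg/mL and HOS controls at 0 μg/mL, all for 24 h. U2-OS and HOS are established human osteosarcoma lines, and all arrays carry RNA of 1 cultured line each. The labels do not spell out OGE or name a vehicle for the controls. Values are log2 levels made by RMA (robust multi-array average), in which 1 unit is 2-fold. There were no replicates within a condition, so no value carries an error of its own. The genes were named with the OGE differences known, so these are a description with no test. A level of 1 probe set cannot be set against that of another, so each gene is compared only with itself.

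Cells store surplus fatty acids as triglyceride in lipid droplets, which are covered by perilipins, proteins that control access of lipases to the stored fat. Stored triglyceride is broken down in steps: PNPLA2 (adipose triglyceride lipase, ATGL) removes the first fatty acid with the help of its activator ABHD5 (CGI-58), LIPE (hormone-sensitive lipase) acts on the diglyceride, and MGLL (monoglyceride lipase) on the monoglyceride. G0S2 and HILPDA are small proteins that inhibit PNPLA2. PLIN2 and PLIN3 are made in most cell types, whereas PLIN1, PLIN4 and PLIN5 are known mainly from fat, muscle and other tissues with a high fat turnover.

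With OGE, PLIN2 was higher in both lines, HILPDA was higher by more than 2-fold in U2-OS and by less in HOS, and the lipases differed by less than 2-fold in either line. A gene was called by size when its log2 difference was at least 1 and its higher value was at or above the median of that array over all probe sets. Array medians lay between 3.58 and 3.62, and all 9 genes were at or above the median on all 4 arrays. On each array, between 10861 and 10995 of all 18417 genes were. In U2-OS 2 of the 9 were called higher, where 2.94% of the 11506 genes that reached the floor were, and 0 were called lower, where 7.88% were. In HOS 1 of the 9 was called higher, where 1.70% of 11334 genes were, and 0 were called lower, where 2.18% were. Since the genes were named with these differences known, the counts show only which of them moved. Both OGE arrays were above both control arrays in 4 of the 9 genes (PLIN2, HILPDA, PNPLA2 and ABHD5), where 20.3% of all 18417 genes had this order, and below both in 0, where 15.0% did. The median difference over the 9 genes was 0.54 in U2-OS and 0.26 in HOS, beside 0.03 and 0.02 over all 18417 genes.

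**Figure D1:**
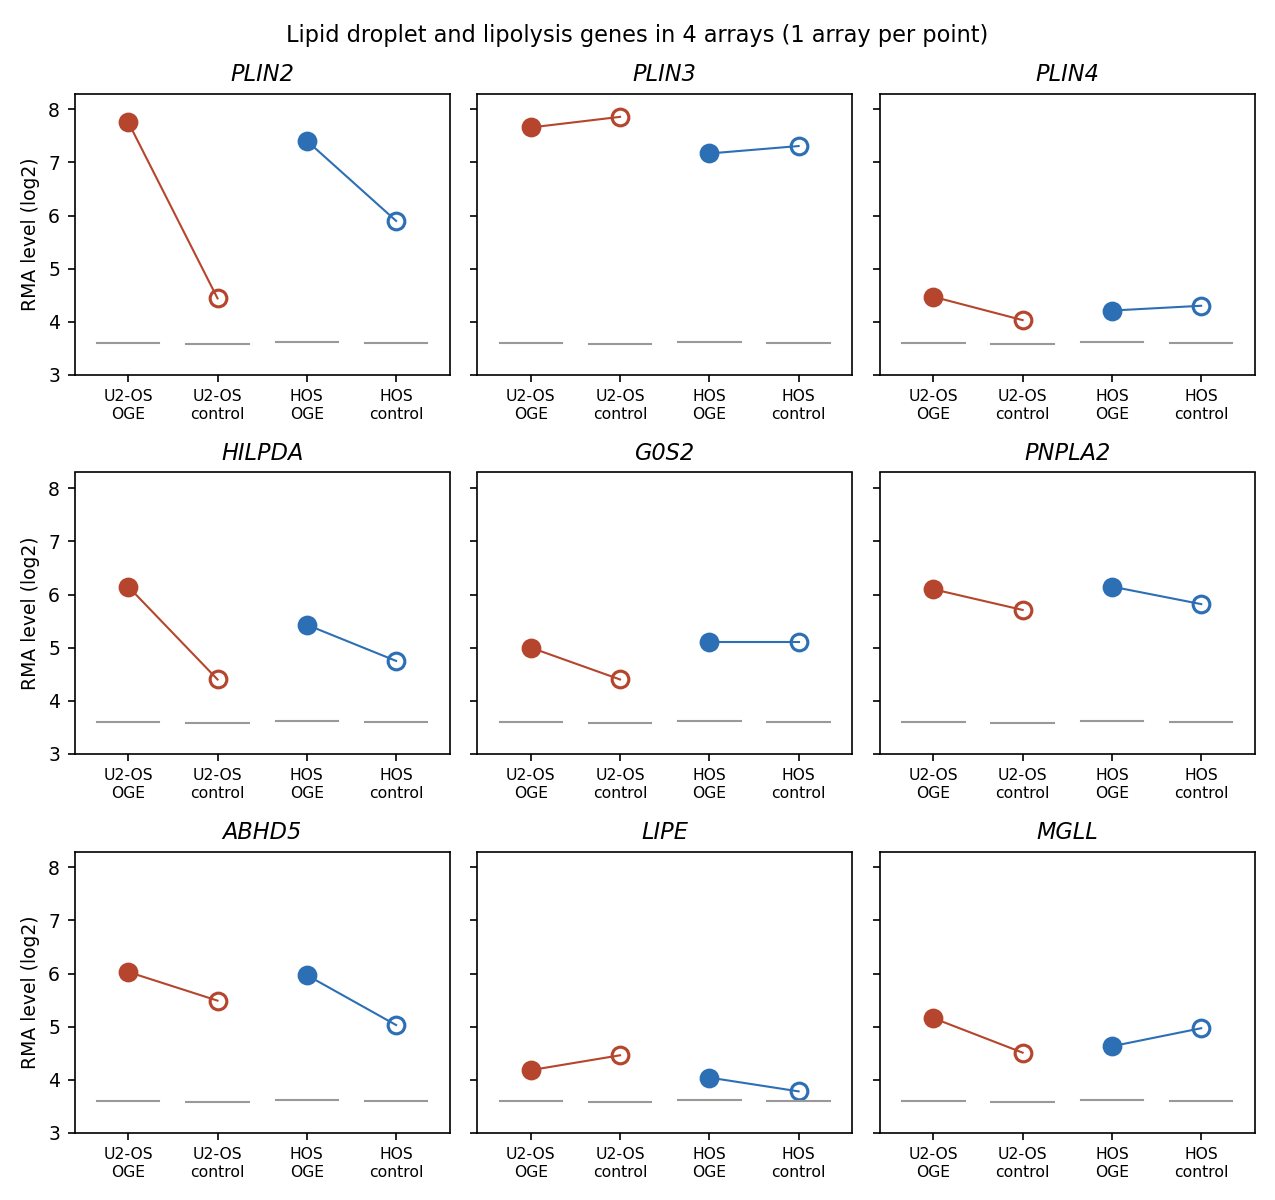
RMA level (log2) of the 9 measured genes on the 4 arrays, 1 point per array, filled for OGE and open for control, red for U2-OS and blue for HOS; grey bars mark each array's median. PLIN2 reached 7.76 and 7.41 with OGE, against controls at 4.44 and 5.90, while PLIN3 stayed between 7.17 and 7.86. Heights are compared within a panel only.

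Among the coat genes, PLIN2, the perilipin that is present on droplets of most cells, had the largest difference. Its level was 7.76 with OGE and 4.44 without in U2-OS, and 7.41 with OGE and 5.90 without in HOS. Both OGE arrays were above both control arrays, and the spread between the lines was 0.35 with OGE and 1.46 without, HOS being the higher line without OGE. The difference with OGE was 3.32 in U2-OS, a 9.99-fold higher level, and 1.51 in HOS, a 2.85-fold higher level. Ordered by rise, PLIN2 was 12th of 11506 genes in U2-OS and 39th of 11334 in HOS.

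PLIN3 (TIP47), a perilipin that also occurs free in the cytosol and moves onto new droplets, did not share this pattern. It was at 7.66 with OGE and 7.86 without in U2-OS, and at 7.17 and 7.31 in HOS. The OGE arrays were slightly below their own controls, by 0.20 and 0.14, and the arrays separated by line rather than by treatment. PLIN4, a perilipin best known from fat cells and muscle, was at 4.47 with OGE and 4.03 without in U2-OS, a difference of 0.44. In HOS it was at 4.21 with OGE and 4.30 without, a difference of -0.09. The OGE and control values of PLIN4 overlapped over the lines, and its whole range over the 4 arrays was 0.44. PLIN4 and PLIN5 are adjacent protein-coding genes on chromosome 19, and PLIN3 lies on the same chromosome with 8 protein-coding genes between it and PLIN4.

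The promoters of PLIN2 and PLIN3 are shown because these perilipins, both widely expressed, differed in their OGE values. Each sequence is the 250 bases before the annotated gene start, 5′ to 3′ on the gene's strand, from RefSeq on GRCh38.p14. Capitals mark matches on either strand to the motifs searched. PLIN2 is on the minus strand at chr9:19127493-19127742 and PLIN3 on the minus strand at chr19:4867668-4867917.
PLIN2: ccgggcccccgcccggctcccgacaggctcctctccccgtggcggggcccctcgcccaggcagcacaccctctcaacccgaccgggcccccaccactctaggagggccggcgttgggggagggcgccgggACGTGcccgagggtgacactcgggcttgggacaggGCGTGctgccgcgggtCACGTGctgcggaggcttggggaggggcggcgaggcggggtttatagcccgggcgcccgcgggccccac
PLIN3: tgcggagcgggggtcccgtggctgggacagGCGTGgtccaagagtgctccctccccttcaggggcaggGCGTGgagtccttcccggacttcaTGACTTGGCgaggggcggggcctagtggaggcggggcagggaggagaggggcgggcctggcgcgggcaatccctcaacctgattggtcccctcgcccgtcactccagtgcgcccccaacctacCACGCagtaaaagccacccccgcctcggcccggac

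The motifs searched were the hypoxia response cores ACGTG and GCGTG, the PPAR receptor site AGGTCA and its direct repeat DR1, the ATF4-C/EBP composite TTGCATCA, the cyclic AMP response element TGACGTCA, the AP-1 site TGANTCA and the antioxidant response element TGACNNNGC, where N is any base. The PLIN2 window held ACGTG at 120 to 116 bases before the start and GCGTG at 85 to 81 bases. It also held ACGTG on both strands of the palindrome CACGTG, at 69 to 64 bases. This palindrome is 1 place, and it was not searched as a motif of its own. ACGTG was in 18.5% of all 35116 promoter windows, and in 20.5% of the 7287 windows with a GC content of at least 70%, to which PLIN2 with 78.0% belongs. GCGTG was in 32.2% of all windows. The PLIN3 window, with a GC content of 70.8%, held GCGTG 3 times and a match to TGACNNNGC, which was in 10.9% of windows, and no ACGTG. Of the 9 genes with values, 7 had a promoter in the table, whereas HILPDA and MGLL had none and were not searched. Among the 7, only the window of PLIN2 held ACGTG, and beside the shares above 1 gene of 7 does not stand out. PNPLA2 held AGGTCA, which was in 12.1% of windows, and PLIN4 held TTGCATCA, which was in 0.772%. No window of these 7 genes held DR1, TGACGTCA or TGANTCA. These were in only 0.0171%, 1.65% and 6.57% of all windows, so their absence from so few genes does not set them apart. The core GCGTG was also in the window of G0S2 and in windows of ABHD5. G0S2 held it 4 times, beside a match to TGACNNNGC. ABHD5 held 1 site, shared by its overlapping windows that begin at chr3:43690620 and chr3:43690688. Its further window, which begins at chr3:43690848, held no match. LIPE held no match in either of its windows. These are matches of letters only, and binding was not measured.

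Of the inhibitors of PNPLA2, HILPDA was called higher in U2-OS, and G0S2 was called in neither line. HILPDA, a small droplet protein named for its induction by hypoxia, was at 6.15 with OGE and 4.40 without in U2-OS, and at 5.43 and 4.75 in HOS. Both OGE arrays were above both control arrays. The difference was 1.75 in U2-OS, a 3.36-fold higher level that ranked 81st of 11506 genes, and 0.68 in HOS, a 1.60-fold higher level that was not called. G0S2, the other inhibitor, first described as a gene of the switch from resting to dividing blood cells, was at 5.00 with OGE and 4.40 without in U2-OS, a difference of 0.60. In HOS it was at 5.10 on both arrays, so the U2-OS control was the low array and the other 3 lay within 0.10 of each other.

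**Figure D2:**
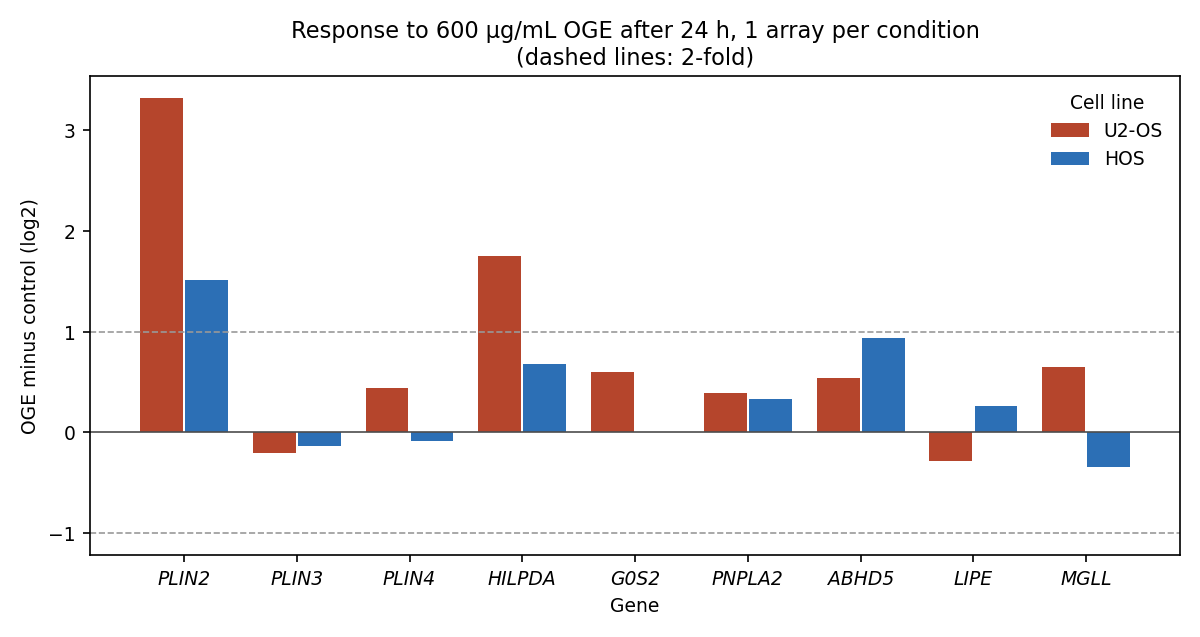
OGE minus control (log2) for each of the 9 genes, U2-OS in red and HOS in blue, from 1 array per condition, so the bars carry no error. Dashed lines mark 2-fold. Only the bars of PLIN2 in both lines, at 3.32 and 1.51, and of HILPDA in U2-OS, at 1.75, pass them, and ABHD5 in HOS stops at 0.94.

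The first lipase and its activator were above control in both lines, below 2-fold. PNPLA2, the lipase that starts the breakdown of triglyceride, was at 6.10 with OGE and 5.71 without in U2-OS, and at 6.15 and 5.82 in HOS. Both OGE arrays exceeded both controls, with differences of 0.39 and 0.33. ABHD5, which binds PNPLA2 and raises its activity, was at 6.03 with OGE and 5.49 without in U2-OS, and at 5.97 and 5.03 in HOS. Its OGE arrays again lay above its control arrays, with differences of 0.54 and 0.94, and it was the only gene of these 4 with a difference near 2-fold. ABHD5 ranked 224th by rise among the 11334 genes in HOS.

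The later lipases had differences of opposite sign in the lines. LIPE, the hormone-sensitive lipase, was at 4.18 with OGE and 4.46 without in U2-OS, a difference of -0.28, and at 4.04 and 3.78 in HOS, a difference of 0.26. MGLL, which also breaks down the signalling lipid 2-arachidonoylglycerol, was at 5.16 with OGE and 4.51 without in U2-OS, a difference of 0.65, and at 4.63 and 4.97 in HOS, a difference of -0.34. OGE and control values of LIPE and MGLL overlapped over the lines, and neither gene was called in either line.

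The response in U2-OS was above that in HOS for 6 of the 9 genes. PLIN2 differed by 1.81, HILPDA by 1.07, MGLL by 0.99, G0S2 by 0.60, PLIN4 by 0.53 and PNPLA2 by 0.06. The response of LIPE was lower in U2-OS by a difference of -0.54, that of ABHD5 by -0.40 and that of PLIN3 by -0.06. The median of these differences was 0.53 over the 9 genes and -0.01 over all genes, where 8976 of 18417 had the larger response in U2-OS. Since the genes were named with the OGE differences known, this median and the count of 6 only describe them. With 1 array in each condition, a difference between responses has no residual to be tested against.

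**Figure D3:**
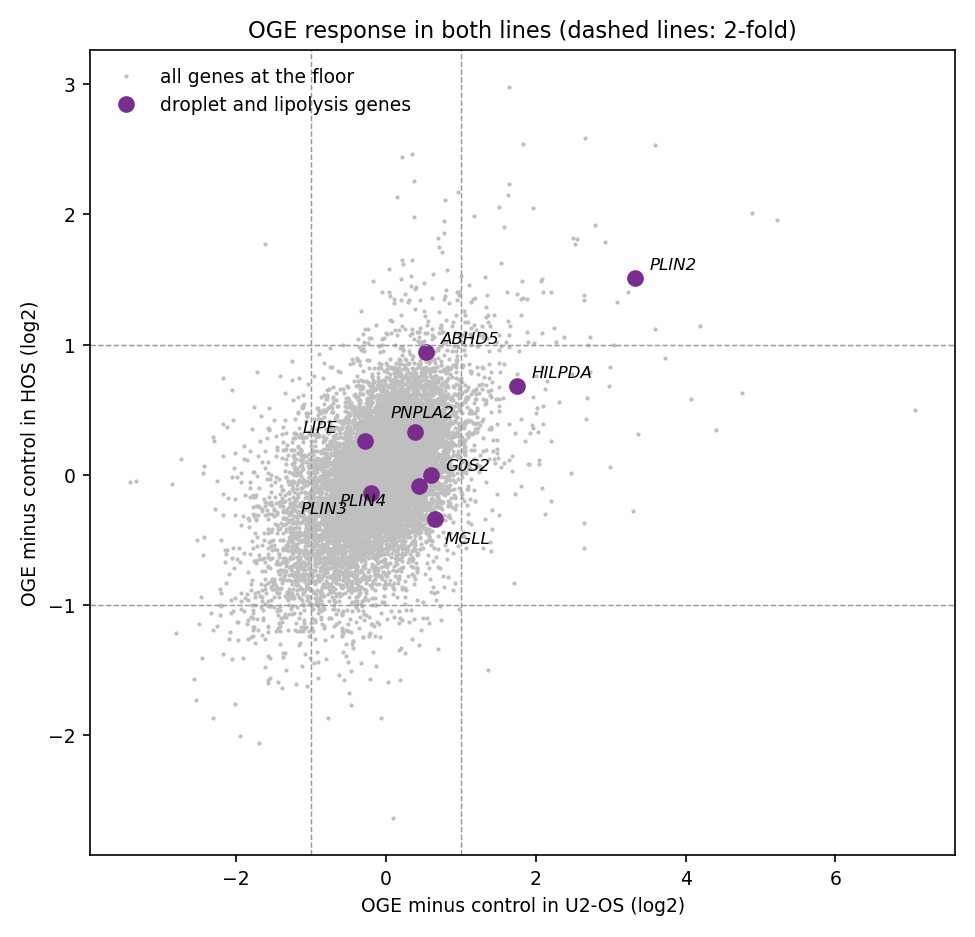
OGE minus control (log2) in U2-OS on the horizontal axis and in HOS on the vertical axis; grey points are genes at the floor in at least 1 line and purple points the 9 genes. Dashed lines mark 2-fold. PLIN2, at 3.32 and 1.51, is the only purple point past 2-fold on both axes, and ABHD5 is the highest on the HOS axis after it.

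The lines themselves were compared with limma on all 18417 genes, with line and OGE as terms, which treats the treatment states as repeats and has 1 residual degree of freedom before moderation. Of the 9 genes, 0 passed an adjusted p of 0.05 in limma, where 0.885% of all genes were called higher in U2-OS and 1.04% lower. Before adjustment 1 of the 9, PLIN3, was under 0.05, as were 3816 of all 18417 genes, so this count does not set the 9 apart. PLIN3 was higher in U2-OS, by 0.49 with OGE and 0.55 without, and limma estimated 0.52 ± 0.169 (SE) with an adjusted p of 0.193. LIPE differed by 0.14 with OGE and 0.68 without, and G0S2 by -0.10 and -0.70, with limma adjusted p of 0.373 and 0.403. PNPLA2 was within 0.11 between the lines in both states.

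For PLIN2, HILPDA, MGLL and PLIN4 the higher line was not the same with OGE as without it. PLIN2 was 0.35 higher in U2-OS with OGE, and without OGE its difference was -1.46, so that HOS was the higher line. HILPDA differed by 0.72 with OGE and by -0.35 without, MGLL by 0.53 and -0.46, and PLIN4 by 0.26 and -0.27. For PLIN2 limma's estimate over both states was -0.555 ± 0.456 (SE), with an adjusted p of 0.591, an average of the 2 signs. ABHD5 differed less with OGE, by 0.06, than without it, by 0.46.

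**Figure D4:**
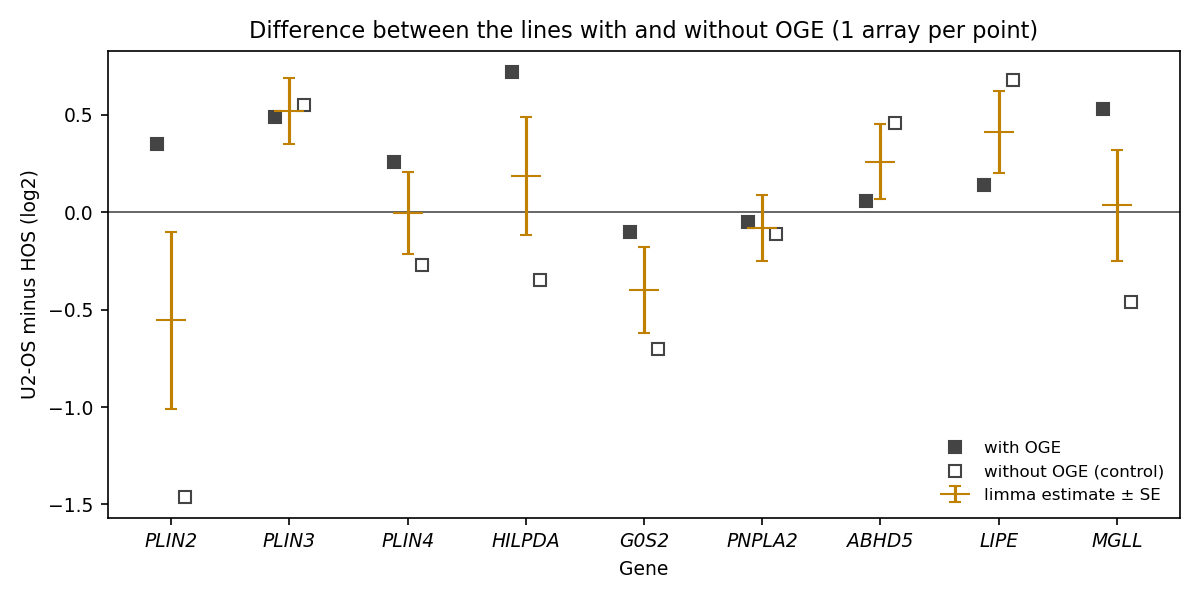
U2-OS minus HOS (log2) for each gene with OGE (filled squares) and without it (open squares), 1 array per line and state, and limma's estimate over both states with its SE (bars). PLIN2 lies at 0.35 with OGE and -1.46 without, whereas PLIN3 lies at 0.49 and 0.55.

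Genes around the droplet were taken from 4 lists. Together 49 of their genes reached the floor in each line. In U2-OS 3 of the 49 were called higher and 2 lower, beside 2.94% and 7.88% of all genes at the floor, and in HOS 1 was called higher and 1 lower, beside 1.70% and 2.18%. Over both directions, 10.2% of the list genes at the floor were called in U2-OS, close to the 10.8% of all genes, and 4.08% in HOS, close to 3.88%. Of 19 measured genes of triglyceride synthesis, 12 reached the floor in U2-OS and 11 in HOS, and 1 was called higher and 0 lower in each line, with list medians over the measured genes of -0.04 in U2-OS and 0.01 in HOS. This was GPAT3, an acyltransferase of the endoplasmic reticulum that starts glycerolipid synthesis. GPAT3 was at 7.80 with OGE and 5.56 without in U2-OS, a difference of 2.24, and at 5.33 and 4.20 in HOS, a difference of 1.13. With a stricter floor, the 75th percentile in place of the median, the HOS call of GPAT3 was lost. The enzymes that complete triglyceride were not called: DGAT1 differed by 0.13 and 0.20 and DGAT2 by 0.00 and 0.28.

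Of 19 measured genes of droplet assembly and other droplet proteins, 11 reached the floor in U2-OS and 13 in HOS. Among these, 1 was called higher and 1 lower in U2-OS, and 0 higher and 1 lower in HOS, with medians of -0.13 and -0.02. LDAF1, a partner of seipin at the sites where droplets form, was at 8.37 with OGE and 6.62 without in U2-OS, a difference of 1.75, and at 6.77 and 6.0 in HOS, a difference of 0.77. HSD17B11, a dehydrogenase that resides on droplets, was at 5.23 with OGE and 6.80 without in U2-OS, a difference of -1.57, and at 4.33 and 5.50 in HOS, a difference of -1.17. PLIN1, the perilipin of fat cells, differed by 0.23 and -0.19. CIDEC, which fuses droplets in fat cells, was below the array median on all 4 arrays, between 2.77 and 3.14.

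Of 15 other hydrolases of neutral lipids, 12 reached the floor in U2-OS and 11 in HOS, and 0 were called in either line, with medians of -0.03 in U2-OS and -0.05 in HOS. Over all genes at the floor the share called was 10.8% in U2-OS and 3.88% in HOS, so a count of 0 among so few genes does not set them apart. Of 20 receptors for fatty acids of the PPAR family and their targets, 14 reached the floor in each line, and 1 was called higher and 1 lower in U2-OS, and 0 in HOS, with medians of 0.02 and 0.15. PPARG, the receptor best known from fat cells, was at 4.62 with OGE and 3.59 without in U2-OS, a difference of 1.03, and at 4.18 and 4.15 in HOS. After cyclic loess normalization the U2-OS difference of PPARG was 0.96 and the call was lost, as it was with the floor at the 75th percentile. The carnitine carrier SLC25A20 was at 2.60 with OGE and 3.65 without in U2-OS, a difference of -1.05, with the control value just above the array median of 3.58, and this call too was lost at the stricter floor. The PPAR targets ANGPTL4, PDK4 and CPT1A had differences of -0.23, 0.17 and 0.24 in U2-OS and of 0.15, 0.50 and 0.37 in HOS. PDK4 was below the array median on all arrays. ANGPTL4 was below it in U2-OS, at 2.92 with OGE and 3.15 without, and in HOS controls, at 3.52, and just above it in HOS with OGE, at 3.67.

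**Figure D5:**
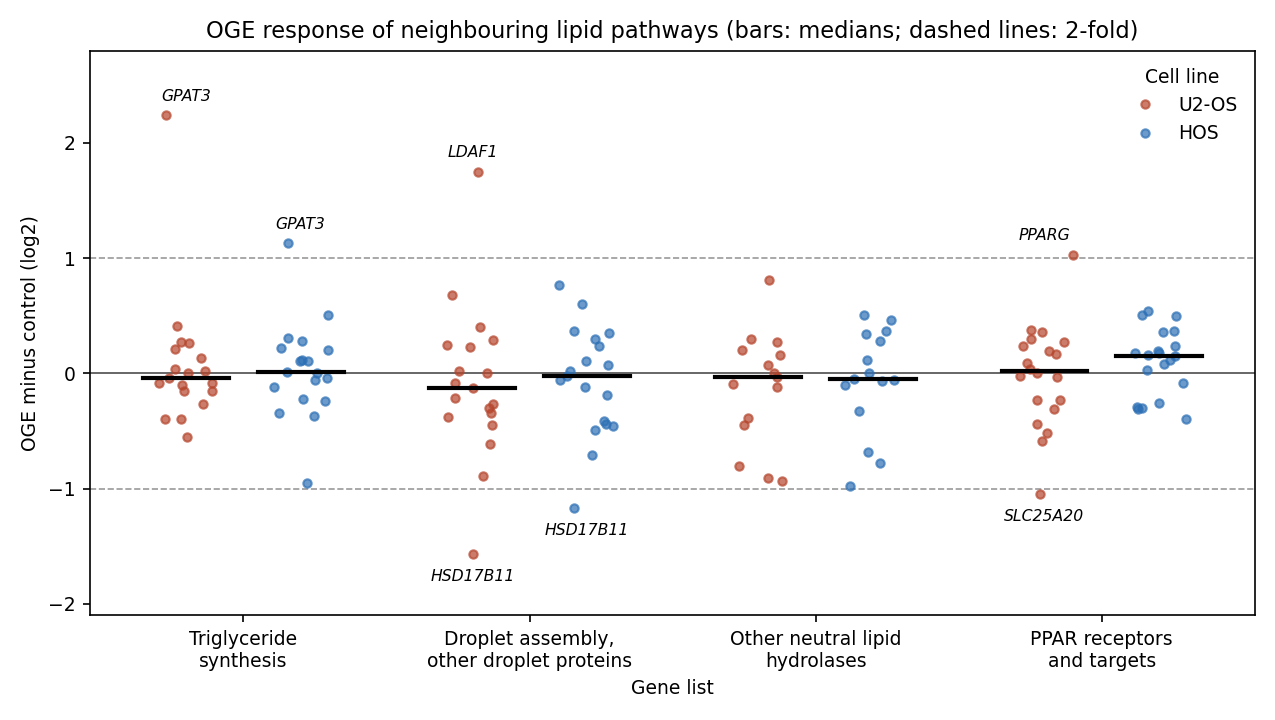
OGE minus control (log2) of the genes of 4 lists around the droplet, 1 point per gene, U2-OS in red and HOS in blue, with the list medians as black bars and 2-fold as dashed lines. Medians lie between -0.13 and 0.15, and the genes called by size are named.

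By the rule for likeness, each gene was centred on its mean over the 4 arrays, and the distance is the root of the summed squared differences between centred values. Among 12029 genes at or above the median on at least 1 array, the 5 nearest to PLIN2 were FAM83G, BNIP3, TRIB3, MXD1 and SNORD14E, at distances from 0.50 to 0.82. BNIP3 differed with OGE by 2.99 in U2-OS and 0.83 in HOS, and FAM83G by 2.64 and 1.34. The 5 nearest to HILPDA were PIM3, ARC, PRKAB1, OSGIN1 and GNPDA1, at distances from 0.21 to 0.27. PIM3 differed by 1.51 in U2-OS and 0.67 in HOS. For PNPLA2, whose own differences were small, the 5 nearest genes were PPP1R14A, KANK3, FBXO8, GLYCTK and RBMXL2, all within 0.03, and the choice depended on the scaling. These distances rest on 4 arrays and describe them.

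Markers of the labelled origin were compared as a check. On each array, between 10861 and 10995 of all 18417 genes were at or above the median, so reaching it is common. Of 8 measured osteoblast and mesenchymal markers, 7 were at or above the array median with OGE in each line, 6 in U2-OS controls and 7 in HOS controls, and SPP1 was below it on all arrays. Their OGE differences ran from -1.75 to 0.74 in U2-OS and from -1.25 to 0.38 in HOS. Of the 7 at the floor in each line, COL1A1 and SPARC were called lower in U2-OS and COL1A2 in HOS. Over all genes at the floor, 7.88% were called lower in U2-OS and 2.18% in HOS. Of 5 measured immune and endothelial markers, 0 were at or above the median on any array. Of 5 epithelial markers, 2 were at or above it with OGE and 3 without in U2-OS, and 4 in each state in HOS. Among them KRT8 lay between 7.84 and 9.38 and KRT18 between 9.05 and 10.09, while CDH1 was below the median on all arrays. Of 8 adipocyte markers, 3 were at or above the median with OGE in each line, 4 in U2-OS controls and 3 in HOS controls. Their summed log2 level was 26.74 with OGE and 24.83 without in U2-OS, and 25.27 and 24.92 in HOS. The defining adipocyte genes ADIPOQ, LEP and FABP4 were below the median on all 4 arrays, between 1.23 and 2.81, whereas PLIN1, PPARG and CEBPA were at or above it on all 4. Of these, PPARG was called higher in U2-OS, as given above, and CEBPA, a regulator of fat cell genes, differed by 0.56 in U2-OS and 0.24 in HOS. LPL, the lipoprotein lipase, differed by -0.80 and -0.06, and the other adipocyte markers by -0.29 to 0.37. The part of the adipocyte markers in the PLIN2 difference was not tested. In such bulk RNA, a change in the make-up of the culture and a change of RNA per cell cannot be told apart.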

How the data were processed

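RNA of 4 samples was hybridised to 1 array each. The deposited values are log2 levels, which the authors computed with RMA per the submitters' processing notes, with no version stated. That they are log2 was inferred from their range, 0.16 to 13.41. RMA brings arrays to a common distribution and compresses low signals, so changes of low genes are understated. No label or header used here names a genome build.

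Of 33297 probe sets, 19460 had 1 gene symbol in the platform annotation of 2016, and 19429 of these were updated through the RefSeq gene table. Where several probe sets shared a symbol (769 of 18417 genes), that of the highest mean stood for the gene. Each of the 9 measured genes has 1.

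The genes and lists were chosen with earlier results of these data known. OGE was therefore described by size only, and limma was not run for it. The lines were compared with limma 3.58.1 in R 4.3.3 (lmFit, eBayes, Benjamini-Hochberg over all genes), checked on simulated data. Whether differences between the lines entered the choice of the genes is not recorded. The labels do not say that arrays came from separate cultures. Before moderation, the residual of limma's fit is the difference between the OGE responses of the lines. Its SE is therefore larger for genes whose responses differ, at 0.456 for PLIN2 and 0.169 for PLIN3. The p-values measure no spread between cultures or repeated arrays, and the number of arrays limits the precision. Text names all measured genes, up to 4 called genes per list, PLIN1, CIDEC and the 5 nearest patterns of PLIN2, HILPDA and PNPLA2. DGAT1, DGAT2, the PPAR targets and the markers were named after their values were seen. Alternatives were other thresholds, floors, normalizations, probe set means and limma settings.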

Additional observations from a re-analysis of the deposited data

Results flagged for a closer look

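In 3 genes the OGE differences had opposite signs in the lines, each sign resting on 1 OGE array and 1 control. The smallest of these differences was that of PLIN4 in HOS, at -0.09. How many of all genes had opposite signs was not counted, so the 3 are not set apart from other genes. The response in U2-OS minus that in HOS was 0.99 for MGLL, 0.53 for PLIN4 and -0.54 for LIPE on the log2 scale. These differences between responses were not tested. No gene of the 3 was called in either line, and the signs in each line held after quantile normalization, cyclic loess and centring on the median of all genes.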

How the results depend on the processing

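The labels give no replicate numbers. OGE could have been fitted with line as a block, on 1 residual degree of freedom, and this was not run because the genes were named with the OGE differences known. Of 144 alternatives tried for the OGE differences of the 9 genes, 139 kept the call, 4 gained it and 1 lost it, all 5 through the threshold itself. Part of the 139 was fixed in advance. The 9 genes have 1 probe set each and reached the floor on all arrays, so probe set means and leaving out the floor could change no call. At 1.5-fold, 4 of the 9 were called in U2-OS (PLIN2, HILPDA, G0S2 and MGLL) and 3 in HOS (PLIN2, HILPDA and ABHD5). Of the 49 list genes that reached the floor in each line, 13 were called in U2-OS and 9 in HOS. Calls at 1.5-fold were common, with 3296 of 11506 genes called in U2-OS and 1939 of 11334 in HOS. At 3-fold, PLIN2 and HILPDA were still called in U2-OS, and 0 of the 9 were called in HOS. Of the 49 list genes, 2 and 0 were left, beside 293 of the 11506 genes in U2-OS and 48 of the 11334 in HOS. Under these thresholds the shifts follow from the threshold. With the floor at the 75th percentile 3 list genes were called in U2-OS and 1 in HOS, since fewer genes reach that floor. After cyclic loess 4 list genes were called in HOS, against 2 as reported; the cause was not tested. Limma called 0 of the genes tested for line in each alternative, with smallest adjusted p from 0.101 to 0.318 in limma; all 9 were tested except where genes below the median level were left out, which tested 8, without LIPE. Over all genes limma called 354, against 131 without OGE as a term, 1309 when moderation used a trend and was robust, 1763 after quantile normalization, 1326 after cyclic loess and 749 when genes below the median level were left out; the cause was not tested. The response was larger in U2-OS for 6 of the 9 under quantile normalization and cyclic loess, and probe set means could not change this count. Of the 5 nearest patterns, 4 of PLIN2 and 4 of HILPDA were shared after quantile normalization and after cyclic loess, against 0 and 2 of PNPLA2. With 1 array per condition, no spread between cultures is known.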
